A study of Mus musculus with 4 samples.

Results

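H19, Igf2, Dlk1, Meg3, Rian, Mirg and Rasgrf1 are the genes of the 3 imprinted mouse loci whose control regions carry methylation on the paternal chromosome. These 7 genes, of 34328 annotated protein-coding and lncRNA genes, were taken by name. No cut on measured values was used, though earlier results of these data were known. They define 3 intervals, each from the first to the last gene of a locus with 40 kb added on both sides, in mm10 coordinates. The H19-Igf2 interval was chr7:142535530-142706816, the Dlk1-Mirg interval chr12:109412485-109789458 and the Rasgrf1 interval chr9:89869508-90066979. Cut into consecutive 500 bp steps, the intervals held 904 steps with at least 4 measured CpGs, of 1857104 such steps in the genome.

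Imprinted genes are expressed from only one parental chromosome, according to methylation that an imprint control region received in the sperm or the egg. Most such regions are methylated in the egg, and only a few, among them those at H19, Meg3 and Rasgrf1, receive their methylation in the male germ line, before birth. In somatic cells such a region is methylated on the paternal copy and unmethylated on the maternal copy, whereas male germ cells carry paternal-type marks on both copies.

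Germline stem (GS) cells are spermatogonial stem cells kept in long-term culture, the testis cells from which sperm arise. The cells came from testis of wild-type Green mice, a strain that carries the EGFP transgene Tg14(act-EGFP)OsbY01 and is C57BL/6 in name and of DBA/2 background, and were kept in culture for either 5 months or 60 months, here called 5M-GS and 60M-GS. Both cultures received human FGF2 at 10 ng/ml, rat GDNF at 15 ng/ml and 1% fetal bovine serum. Methylation was read by whole-genome bisulfite sequencing with post-bisulfite adaptor tagging, which adds the adaptors after the bisulfite step, in 2 replicates per age. The 2 replicates of an age are pooled in 1 table, so replicate spread is unknown. The tests compare 2 pooled libraries and not the culture ages as such, and each 95% interval covers counting error only. The tables held 468121185 calls in 5M-GS against 471693518 in 60M-GS, with a median of 21 and 22 calls per CpG, and the 3 intervals were covered by 24.1 to 24.9 calls per CpG. A level here is the percent of methylated calls over all CpGs of a region covered by 5 calls or more in each table, averaged over both parental chromosomes and all cells of a pool. A lower level in every cell and a share of cells that lack the mark cannot be told apart. Where 2 levels stand together without names, the first is that of 5M-GS and the other that of 60M-GS.

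The control regions were highly methylated in both cultures. The region 4000 to 2000 bp upstream of H19 (chr7:142580147-142582146) stood at 93.5% in 5M-GS (interval 92.2 to 94.6, 1608 calls on 60 CpGs) and at 91.0% in 60M-GS (89.5 to 92.3, 1657 calls). The region 15000 to 11000 bp upstream of Meg3 (chr12:109525996-109529995), known as the IG-DMR because it lies between Dlk1 and Meg3, stood at 93.5% (92.5 to 94.5, 2403 calls on 98 CpGs) and at 92.1% (90.9 to 93.2, 2245 calls). The region 33000 to 29000 bp upstream of Rasgrf1 (chr9:89876508-89880507) stood at 91.1% (89.5 to 92.5, 1426 calls on 61 CpGs) and at 92.1% (90.6 to 93.4, 1432 calls). All 3 regions were thus far above the intermediate level of a region methylated on only one copy, in both tables. Most of the genome was highly methylated too. Its 500 bp steps had a median of 88.8% (5M-GS) and 88.3% (60M-GS). Of these steps, 74% (5M-GS) and 76.2% (60M-GS) reached 80% or more. High methylation was therefore not particular to the 3 control regions.

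The cultures differed little within them. The H19 region was 2.52 points lower in 60M-GS (interval of the difference -4.36 to -0.691), the Meg3 region 1.43 points lower (-2.93 to 0.0493) and the Rasgrf1 region 1.01 points higher (-1.03 to 3.06). These differences of designed regions were described without a test. Of the 16 steps that lay wholly inside the 3 regions, 0 passed the test, a two-sided Fisher's exact test, with p adjusted by Benjamini and Hochberg's method over all steps in the genome, and a minimum difference of 20 points. In the genome 4.06% of steps gained and 0.787% lost methylation by this rule, so 0 of 16 is near the background, and a step above 80% cannot gain 20 points. The H19 steps ranged from 92.8% to 94.95% in 5M-GS and from 87.7% to 91.3% in 60M-GS, those of Meg3 from 88.8% to 96.4% and from 84.9% to 97.8%, and those of Rasgrf1 from 79.8% to 95.3% and from 90% to 95.5%. The step that differed most within a region was chr9:89879001-89879500 at Rasgrf1, at 79.8% in 5M-GS against 93.3% in 60M-GS over 89 calls in each (Fisher's exact test, adjusted p = 0.129).

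Single CpGs gave the same picture at finer scale. At H19, 58 of 60 CpGs were at 80% or more in 5M-GS against 57 in 60M-GS, and the lowest CpG was at 77.8% and at 75.7%. At Meg3, 96 and 95 of 98 CpGs were at 80% or more, and 1 CpG stood apart at 46.2% of 13 calls and 21.4% of 14 calls (chr12:109529132). At Rasgrf1, 56 and 59 of 61 CpGs were at 80% or more, and 1 CpG (chr9:89878732) was at 0% of 9 calls in 5M-GS against 0% of 5 calls in 60M-GS, which is too few calls to place its level closely. Another Rasgrf1 CpG (chr9:89879343) was at 40% of 10 calls in 5M-GS against 88.9% of 9 calls in 60M-GS, and one at the gene-side border (chr9:89880341) was lower in 60M-GS, at 80% of 5 calls and 20% of 5 calls. Counting CpGs that had 10 calls or more in each table, 0 of 58 at H19, 0 of 81 at Meg3 and 0 of 54 at Rasgrf1 passed the same test over all CpGs, against 2.02% that gained and 0.215% that lost in the genome. The plot of single CpGs around the control regions shows the contrast between them and the dips beside them.

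**Figure D1:**
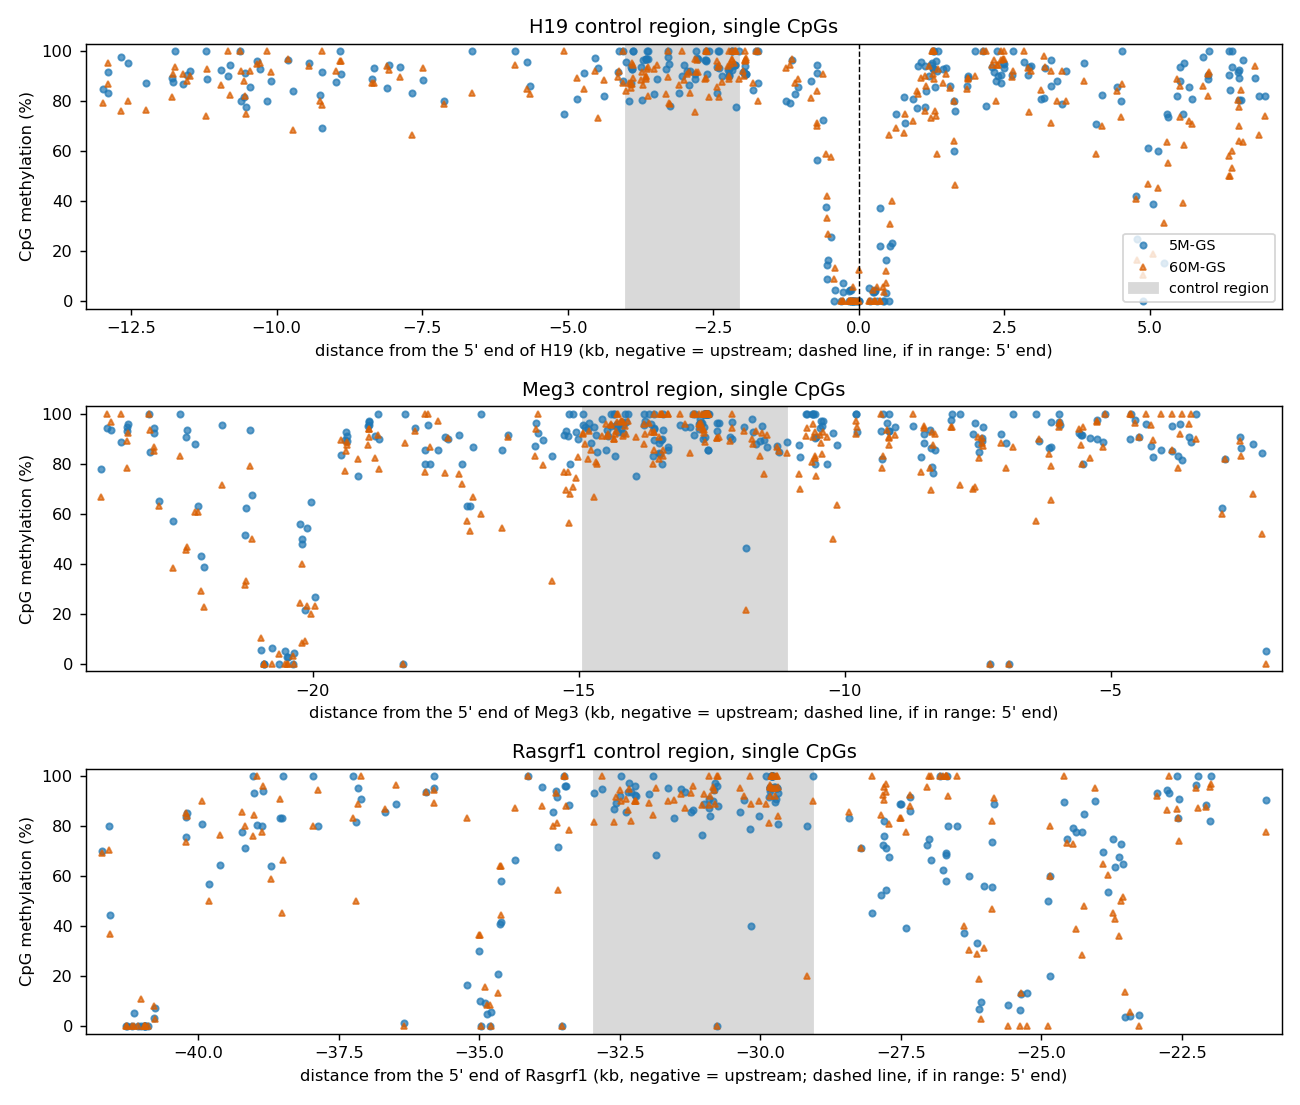
Methylation of single CpGs (percent of calls, vertical axis) by distance from the gene's 5′ end (kb, negative is upstream) around the control regions of H19, Meg3 and Rasgrf1, with 5M-GS as circles, 60M-GS as triangles and the control region shaded. In each shaded region nearly all CpGs lie at 80% or more in both cultures (58 and 57 of 60, 96 and 95 of 98, 56 and 59 of 61). Groups of CpGs near 0% lie at the H19 5′ end, in a dip on the Dlk1 side of the Meg3 region and in dips on both sides of the Rasgrf1 region.

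The Meg3 control region holds an annotated start of the predicted gene Gm34081, on the strand opposite to Meg3. The 300 bases around that start are shown because they are a stretch of the control region itself with a RefSeq sequence (GRCm38.p6). Capitals mark the CpGs, the only positions at which these tables measure methylation.

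Gm34081 start, chr12:109526220-109526519, minus strand: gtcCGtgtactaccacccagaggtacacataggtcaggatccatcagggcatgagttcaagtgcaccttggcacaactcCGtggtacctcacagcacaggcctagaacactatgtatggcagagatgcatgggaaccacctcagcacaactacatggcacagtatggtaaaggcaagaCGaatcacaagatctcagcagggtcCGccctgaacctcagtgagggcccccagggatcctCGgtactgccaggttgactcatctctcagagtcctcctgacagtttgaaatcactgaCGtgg

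Its 6 CpGs were together at 91.6% of 214 calls in 5M-GS against 84.5% of 174 calls in 60M-GS. They ranged from 84.6% to 98.2% in 5M-GS and from 66.7% to 96% in 60M-GS, so each CpG was mostly methylated in both cultures. The lowest in 60M-GS, at position 239 from the 5′ end of the printed sequence, was at 94.6% of 37 calls in 5M-GS against 66.7% of 24 calls in 60M-GS. The densest part of the region, a run of 24 CpGs at chr12:109528253-109528471, was at 96.5% and 97.3%. The Rasgrf1 region likewise held a dense run, 20 CpGs at chr9:89879660-89879924, at 95.02% and 96.1%.

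Other imprinted windows gave the opposite level. In windows that start 1000 bp before the 5′ end and stop 500 bp after it, genes known to be methylated on the maternal chromosome stood at 0.952% in both cultures (Peg3), at 2.13% in 5M-GS against 0.590% in 60M-GS (Peg10), at 8.10% and 7.89% (Airn) and at 9.504% and 9.64% (Kcnq1ot1). The same window at the germ cell genes Dazl and Ddx4, both RNA-binding proteins of the germ line, was at 2.94% and 2.58% and at 11.8% and 9.96%. The 4 maternally marked windows thus stayed under 10% where the 3 paternally marked regions exceeded 90%, in both cultures. The 2 kinds of region differ in place too, since the windows lie at 5′ ends and the control regions upstream of genes. Of all such 5′ windows in the genome, 53.3% in 5M-GS and 51.7% in 60M-GS were under 20%. A low level was therefore not particular to the maternally marked windows. Methylation alone was available to check the cell type.

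**Figure D2:**
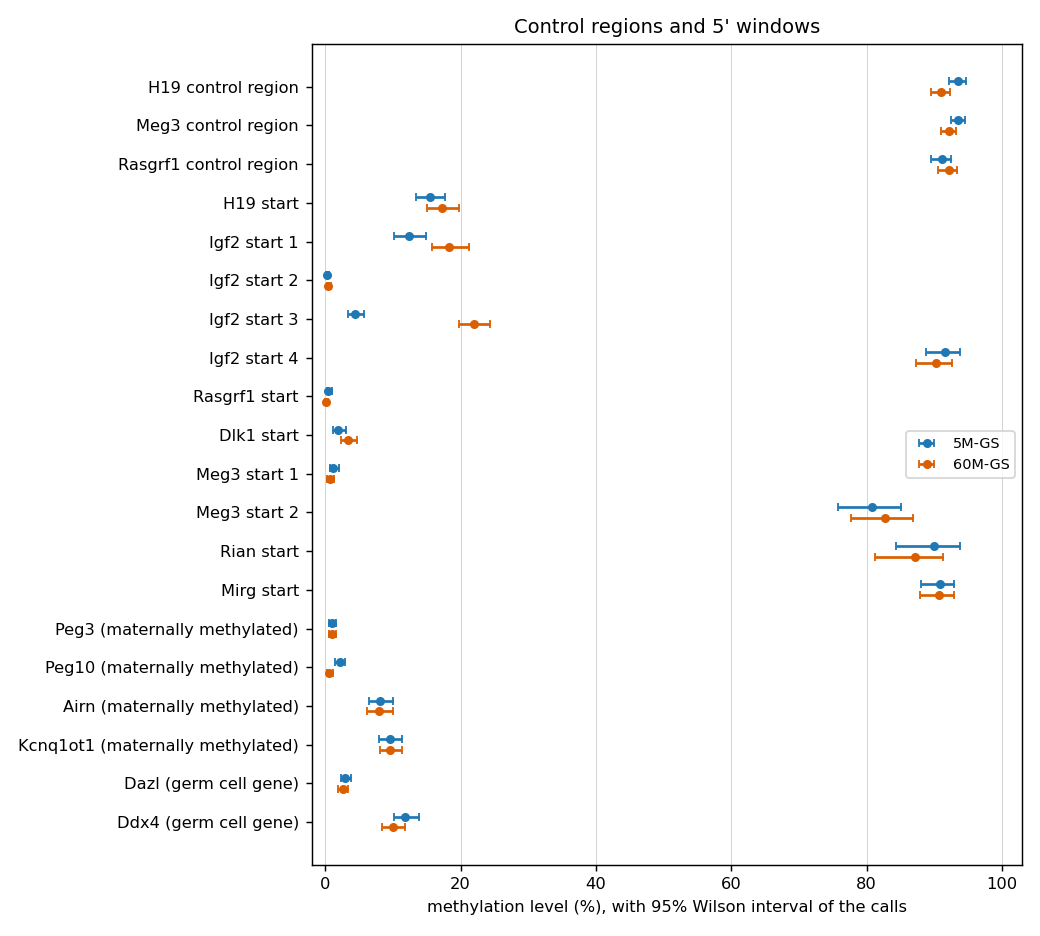
Methylation level (percent, horizontal axis) with its 95% Wilson interval for the 3 control regions, the 5′ windows of the 7 genes and comparison windows of maternally methylated and germ cell genes, in 5M-GS and 60M-GS. The control regions lie between 91.0% and 93.5%, the maternally methylated windows at or below 9.64%, and Igf2 start 3 is the window whose intervals lie farthest apart (4.39% and 22.0%).

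The edges of the methylated stretches depended on how much of the surroundings was methylated too. A stretch was taken as the row of consecutive steps at 80% or more around a control region, bridging steps with under 3 measured CpGs. At H19 it ran over 30 kb in 5M-GS (chr7:142579001-142609000) and over 15 kb in 60M-GS (chr7:142579001-142594000), where a single step at 78.1% ended it. At a limit of 70% the lengths were 30 kb and 31 kb. At Meg3 the stretch covered 8.5 kb in 5M-GS (chr12:109525001-109533500) and 7.5 kb in 60M-GS (chr12:109526001-109533500), and at 70% it covered 11 kb and 9 kb. At Rasgrf1 it was 0.5 kb in 5M-GS (chr9:89879501-89880000), where the step at 79.8% ended it on the far side and a step of 3 CpGs at 62.5% (from 89881001) on the gene side, and 7 kb in 60M-GS (chr9:89876001-89883000). At 70% these became 4.5 kb and 7.5 kb. The far edges set by the steps at 78.1% (H19, 60M-GS) and 79.8% (Rasgrf1, 5M-GS) thus rest on steps just under the limit. At Meg3 the step from 109533501, at 77.6% and 79.7%, set the gene-side edge in both cultures. A step at 79.2% set the far edge there in 5M-GS. Within the step from 109533501, the CpG chr12:109533721 was at 0% of 34 calls and 0% of 21 calls. The other CpGs of that step lay above 82% in both cultures, so the Meg3 gene-side edge rests on that CpG. The gene-side edge of the Rasgrf1 stretch differed between the cultures at 70% too, but at 50% it was at 89883000 in both. It stayed within 500 bp in 7 of 8 alternative settings in 5M-GS and in 5 of 8 in 60M-GS. In 60M-GS it moved as far as 89880000, its position in 5M-GS. The step at 62.5% had too few CpGs for the test.

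One edge was sharp and nearly the same in both cultures, that between the H19 control region and the H19 gene. The stretch ended 855 bp upstream of the H19 5′ end, at chr7:142579001, in both tables. This position moved by at most 500 bp under all 8 alternative settings in both cultures, whereas the edge away from the gene moved further in 4 of 8 settings in 5M-GS and in 5 of 8 in 60M-GS. Step by step from the control region toward the gene, the levels in 5M-GS were 90.6% (from 142579501), 85.1% (from 142579001), 39.0% (from 142578501) and 2.24% (from 142578001). In 60M-GS the same steps were at 90.7%, 92.5%, 52.3% and 0.538%. The fall from a methylated to an unmethylated state thus took place within about 1 kb. The single step at the middle of the slope was 13.3 points higher in 60M-GS (Fisher's exact test, adjusted p = 0.0109), under the limit of 20 points. In that step the CpG 480 bp upstream of the 5′ end was at 25.6% of 39 calls in 5M-GS against 57.7% of 26 calls in 60M-GS, and the one 550 bp upstream at 9.09% of 33 calls and 42.1% of 19 calls. Past the H19 5′ end the step from 142577501 was at 9.39% and 10.4%, and the next one into the gene, from 142577001, was methylated again, at 85.1% and 80.4%.

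On its far side the H19 region had no edge for many kilobases. The 10 kb beyond it stood at 90.3% in 5M-GS against 88.3% in 60M-GS, close to the 93.5% and 91.0% of the control region. The next low site, chr7:142610501-142611000 inside the predicted gene Gm33148, was at 33.5% and 30.0%.

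The Meg3 region was bounded by dips on both sides. On the Dlk1 side, the step chr12:109520001-109520500 was at 3.33% in 5M-GS against 2.52% in 60M-GS. On the Meg3 side, the gene's own 5′ stretch (chr12:109539001-109543500) was at 1.68% and 1.46% over 117 CpGs. Between this dip and the control region the level was uneven. The step from 109538001 was at 83.8% and 82.9%. The last one before the dip (from 109538501, 3 CpGs) was at 48.8% and 33.7%, and the step from 109534001, also with 3 CpGs, at 50.6% and 43.6%. The low level of the step from 109534001 came from the CpG at 109534080, with 0% of 37 calls and 0% of 26 calls. The CpGs on either side of it were at 88.5% and 78.6% (109534020) and at 100% and 86.7% (109534155). That step also ended the Meg3 stretch at the limit of 70%. The 10 kb on the Dlk1 side stood at 75.5% in 5M-GS (2579 calls on 96 CpGs) and 64.4% in 60M-GS (2543 calls), a difference of -11.1 points (-13.6 to -8.62), and 3 of its 16 steps lost methylation. The 10 kb on the Meg3 side stood at 66.7% and 66.3%, a difference of -0.360 points (-2.72 to 2.00), and 0 of its 16 steps were called. Whether the sides differ from each other was not tested. One of the 3 lost steps bordered the control region and overlapped it by its last bases (chr12:109525501-109526000, 92.2% of 255 calls in 5M-GS against 70.7% of 239 in 60M-GS, Fisher's exact test, adjusted p = 1.78e-08). The adjoining step inside the region (from 109526001) was at 94.1% and 85.8%, under the limit (Fisher's exact test, adjusted p = 0.00983), and the next one at 94.7% and 94.6%. The called loss thus lay at the Dlk1-side border, and no step further into the region was called. The bordering step did not pass a conservative form of the test (Fisher's exact test, adjusted p = 1). In that form the calls are divided by the number of CpGs in the step. A read that covers only some of these CpGs then counts for less than 1.

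The Rasgrf1 region lay between 2 dips. Upstream, the step chr9:89874501-89875000 was at 20.6% in 5M-GS against 29.8% in 60M-GS. On the gene side, the step chr9:89883001-89883500 was at 28.2% and 22.5%. Between the control region and that second dip, 2 of 3 tested steps (chr9:89881501-89883000) gained methylation in 60M-GS. Together the 3 steps stood at 71.7% of 424 calls in 5M-GS against 93.1% of 421 calls in 60M-GS (difference 21.4 points, 16.5 to 26.3), and neither called step passed with divided calls. The 10 kb on the upstream side were at 61.8% and 60.9%, and those on the gene side at 69.4% and 70.3%.

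**Figure D3:**
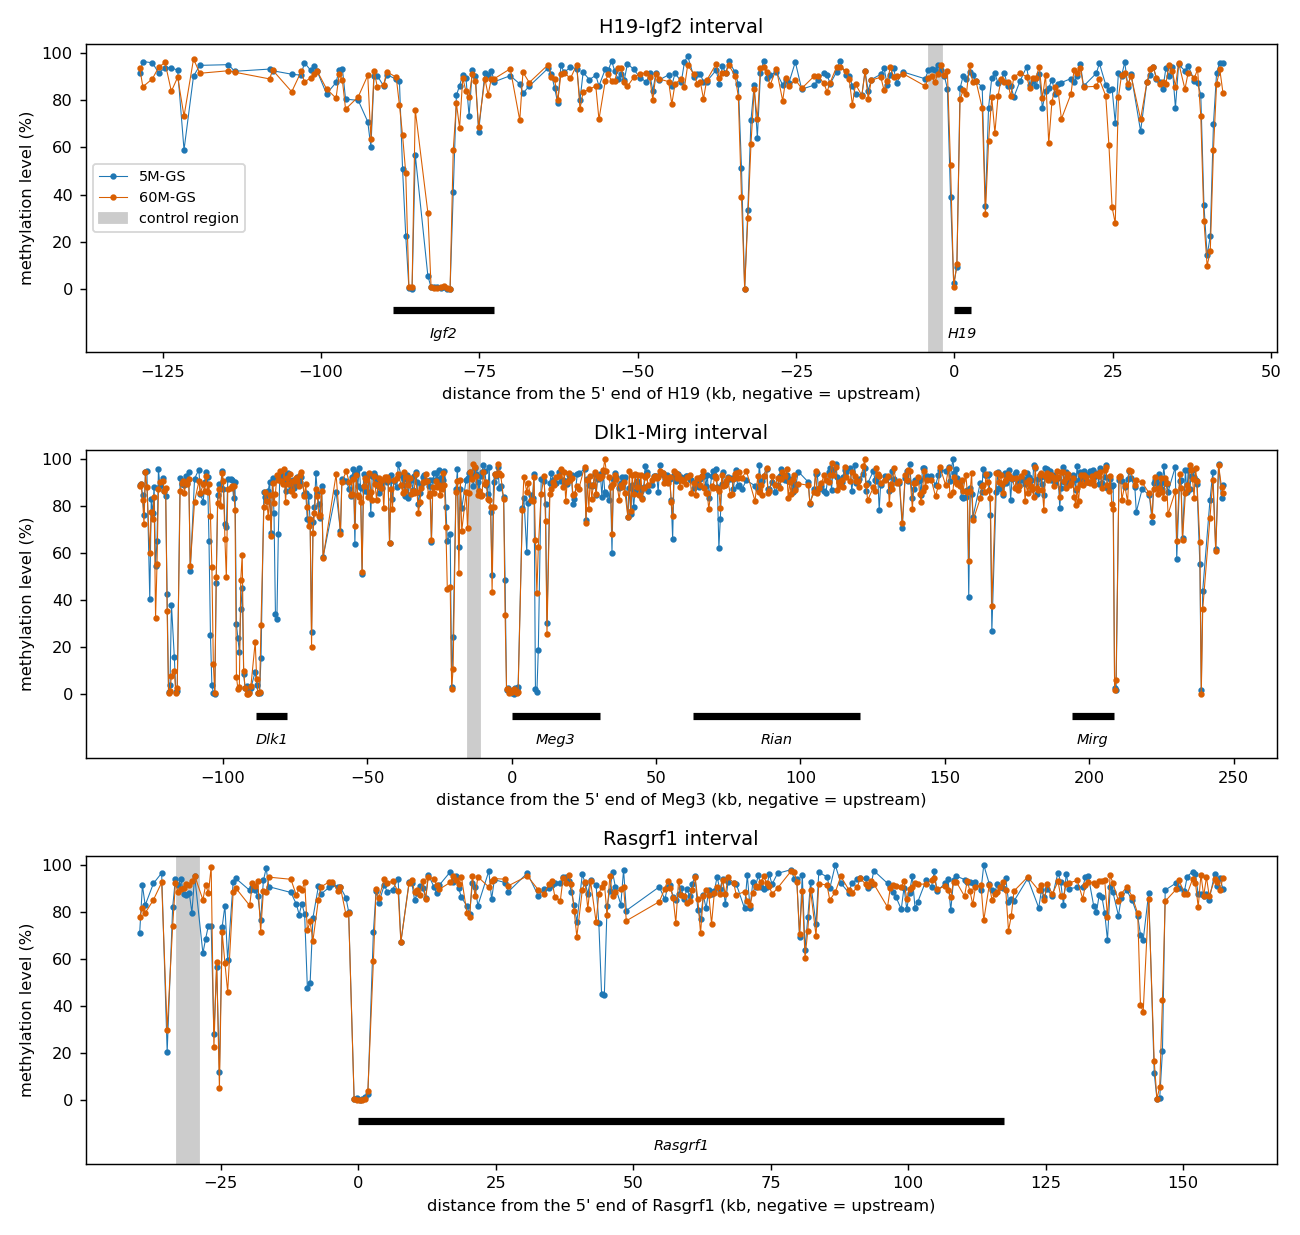
Methylation level of 500 bp steps (percent, vertical axis) along the 3 intervals, by distance from the 5′ end of H19, Meg3 or Rasgrf1 (kb, negative is upstream), with 5M-GS and 60M-GS as lines, the control regions shaded and the 7 genes as bars. The dips toward 0% at the 5′ ends of H19, Dlk1, Meg3 and Rasgrf1 and inside Igf2 are present in both cultures, and the shaded regions lie in the methylated stretches between them.

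The 5′ ends of the 7 genes fell into methylated and unmethylated ones, with 1 Igf2 start differing most between the cultures. H19, a noncoding RNA made from the maternal chromosome in somatic tissue, was at 15.5% in 5M-GS against 17.3% in 60M-GS in the same kind of window, which includes part of the slope described above. Dlk1, a membrane protein related to the Notch ligands and expressed from the paternal chromosome, was at 1.93% and 3.30%. Rasgrf1, an exchange factor that activates Ras and is expressed from the paternal chromosome in brain, was at 0.471% and 0.114%. Meg3, a noncoding RNA of the maternal chromosome, was at 1.17% and 0.670% at its first start, and at 80.8% and 82.7% at a second start within the gene (chr12:109545398). Rian, the host transcript of a cluster of small nucleolar RNAs, was at 90% and 87.1%, and Mirg, the host of a microRNA cluster, at 90.8% and 90.7%. Of the 24 promoter windows in the 3 intervals, 0 gained and 0 lost methylation, against 4.34% of all windows that gained and 0.528% that lost. The 5′ ends of Rian and Mirg were therefore highly methylated, unlike the first start of Meg3 upstream of them.

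The 5′ sequences of Meg3 and Mirg are shown because these genes lie in one row on the same strand and their starts had opposite levels (RefSeq, GRCm38.p6, CpGs in capitals).

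Meg3 start, chr12:109540746-109541045, plus strand: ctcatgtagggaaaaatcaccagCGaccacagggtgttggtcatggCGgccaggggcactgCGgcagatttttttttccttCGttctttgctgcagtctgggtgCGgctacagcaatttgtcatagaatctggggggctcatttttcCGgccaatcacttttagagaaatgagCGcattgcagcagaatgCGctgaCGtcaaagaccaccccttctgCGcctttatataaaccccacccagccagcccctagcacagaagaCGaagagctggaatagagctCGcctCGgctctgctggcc

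Mirg start, chr12:109734731-109735030, plus strand: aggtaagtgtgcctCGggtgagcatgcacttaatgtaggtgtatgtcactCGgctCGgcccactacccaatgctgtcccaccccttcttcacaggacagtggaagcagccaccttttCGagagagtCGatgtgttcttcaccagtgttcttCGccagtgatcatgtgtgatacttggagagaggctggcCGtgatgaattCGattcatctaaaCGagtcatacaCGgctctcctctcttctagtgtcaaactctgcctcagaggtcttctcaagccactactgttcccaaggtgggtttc

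The Meg3 sequence held 13 CpGs, at 0.314% of 318 calls in 5M-GS against 0.279% of 359 calls in 60M-GS. No methylated call was seen at 12 of its CpGs in 5M-GS and at another set of 12 in 60M-GS. The Mirg sequence held 10 CpGs, of which 8 were measured, at 93.3% of 179 calls and 87.0% of 162 calls. Both sequences were richer in CpGs than the median of 7 over 32619 RefSeq promoter sequences of this length. A search on both strands found the cAMP response element TGACGTCA, a palindrome, once in the Meg3 sequence, at position 194, and not in the Gm34081, Igf2 or Mirg sequences. The element occurs in 1.80% of all such sequences. Its CpG, at position 197, had 0% of 30 calls methylated in 5M-GS against 0% of 42 in 60M-GS. The letters TGCCGC, the hexanucleotide bound by the imprint factor ZFP57 when methylated, occurred once in the Meg3 sequence (position 61) and once in the Igf2 sequence (position 281), and in 11.7% of all, on either strand, and did not overlap the other motif. They do not occur in the Gm34081 stretch of the control region or in the Mirg sequence.

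Unmethylated stretches of at least 1500 bp, under 20% in both cultures, numbered 7 in the 3 intervals. The longest was the Meg3 5′ stretch of 4500 bp described above. Inside Igf2, which encodes the insulin-like growth factor 2, a stretch of 3500 bp (chr7:142657501-142661000) was at 0.496% in 5M-GS against 0.410% in 60M-GS over 201 CpGs. At Rasgrf1 a stretch of 3000 bp (chr9:89908501-89911500) was at 0.966% and 0.898% over 162 CpGs. At Dlk1 one of 1500 bp (chr12:109452501-109454000) was at 0.863% and 1.42% over 102 CpGs. Upstream of Dlk1, stretches at chr12:109448001-109451000 and chr12:109424001-109425500 were at 2.77% and 2.28% and at 4.57% and 3.41%. The last, at the end of Ctsh nearer to Rasgrf1 (chr9:90054001-90055500), was at 1.92% and 4.39%. Ctsh encodes the lysosomal protease cathepsin H. All 7 were under 5% in both cultures, and 0 of their steps were called.

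Igf2 had a changed border at one of its starts. RefSeq lists 4 Igf2 starts here. The outermost (chr7:142666816) was methylated, at 91.6% in 5M-GS against 90.3% in 60M-GS, and the start at chr7:142658804 was unmethylated, at 0.249% and 0.471%. The start at chr7:142657496 was at 12.4% and 18.3%. The window of the start at chr7:142661271 was at 4.39% of 1163 calls in 5M-GS against 22.0% of 1291 calls in 60M-GS, a difference of 17.6 points (15.1 to 20.2, Fisher's exact test, adjusted p = 2.29e-38), which is under the limit of 20 points. The step that holds this start, chr7:142661001-142661500, passed the limit, at 5.27% of 683 calls and 32.1% of 747 calls (difference 26.9 points, 23.1 to 30.6, adjusted p = 3.28e-39 by Fisher's exact test), and 9 of its 26 tested CpGs gained methylation. It did not pass with divided calls (Fisher's exact test, adjusted p = 0.592). The gene's antisense transcript Igf2os overlaps the step. The sequence around the start is shown because the gain was graded along it.

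Igf2 start, chr7:142661222-142661521, minus strand: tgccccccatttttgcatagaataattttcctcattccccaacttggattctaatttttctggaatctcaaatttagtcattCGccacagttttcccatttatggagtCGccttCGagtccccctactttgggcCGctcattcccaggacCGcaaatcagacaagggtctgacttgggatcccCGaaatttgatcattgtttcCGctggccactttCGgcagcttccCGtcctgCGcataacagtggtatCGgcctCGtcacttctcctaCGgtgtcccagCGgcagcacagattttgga

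Its 14 CpGs (capitals) were together at 5.88% of 408 calls in 5M-GS against 44.2% of 453 calls in 60M-GS. In 60M-GS the first CpG of the sequence, at position 83, was at 89.3% of 28 calls, and those at positions 109, 115, 135 and 151 were at 63.2% to 80.8%. From position 184 on, the levels lay between 8.11% and 51.6%. In 5M-GS the same 14 CpGs ranged from 0% to 20%. The upstream part of the sequence was thus mostly methylated in 60M-GS, and the part near the start was partly methylated. On the other side of the start, the adjoining step (chr7:142660501-142661000) was at 0.579% and 0.535%. A second Igf2 step, chr7:142664501-142665000, also gained by Fisher's exact test (adjusted p = 1.35e-04), from 22.5% to 49.2%, again at the side of an unmethylated run, 56 CpGs at chr7:142663910-142664387 that were at 0.235% and 0.874%.

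Gained steps made up a smaller share in the 3 intervals than in the genome, and lost steps a larger one. Of the 904 steps, 20 gained (2.21%) and 16 lost methylation (1.77%), against the 4.06% and 0.787% given above, a contrast that was not tested. With flanks of 20 kb in place of 40 kb, 17 of 786 steps gained and 8 lost. The share of losses was then closer to that of the genome. The median difference was -0.782 points in the intervals and -0.384 points over all steps. The H19-Igf2 interval had 2 gains and 5 losses among 196 steps, the Dlk1-Mirg interval 11 gains and 8 losses among 493, and the Rasgrf1 interval 7 gains and 3 losses among 215. With divided calls 6 gains and 1 loss were left in the 3 intervals. Of the 20 gains, 15 were at 20% to 80% in 5M-GS and 5 were under 20%. Of the 16 losses, 10 were at 20% to 80% in 5M-GS and 6 at 80% or more. Most called steps were therefore at an intermediate level in 5M-GS, while such steps made up 12.3% of the 904. This follows in part from the rule, since a level above 80% cannot gain 20 points and one under 20% cannot lose as much.

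**Figure D4:**
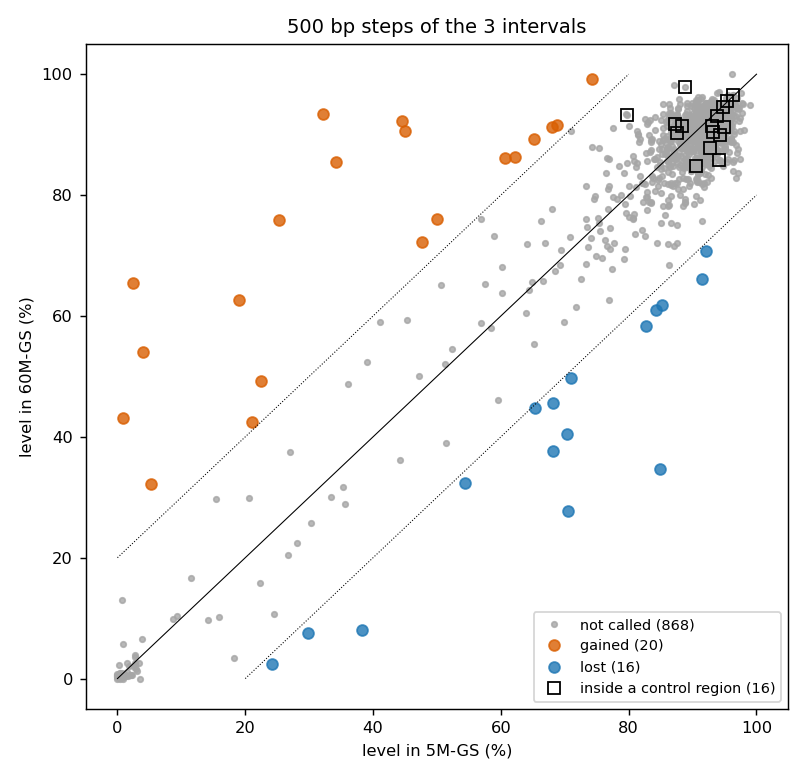
Level of each of the 904 steps in 5M-GS (horizontal axis, percent) and 60M-GS (vertical axis, percent), with 20 gained and 16 lost steps coloured, 16 steps inside a control region framed, and lines at equality and at 20 points. The framed steps lie at the upper right, all at 79.8% or more in 5M-GS and 84.9% or more in 60M-GS, and none is called.

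The 36 called steps formed 22 stretches, 11 gained and 11 lost, and the largest gains lay inside Dlk1, Meg3 and Rasgrf1 and upstream of Dlk1. Inside Dlk1, centred 6927 bp from its start, chr12:109459001-109460500 went from 44.1% of 1571 calls in 5M-GS to 91.8% of 1472 calls in 60M-GS over 59 CpGs (difference 47.7 points, 44.8 to 50.4). Its 3 steps passed with adjusted p from 3.40e-155 to 2.42e-17 (Fisher's exact test), and 37 of its 56 tested CpGs gained methylation. Its centre, a run of 29 CpGs at chr12:109459709-109460048, went from 32.5% to 94.3%. The stretch was intermediate in 5M-GS and as methylated as the control regions in 60M-GS.

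Inside Meg3, centred 4352 bp from its second start, chr12:109549001-109550500 went from 4.97% of 1046 calls to 53.2% of 946 calls over 42 CpGs (difference 48.2 points, 44.7 to 51.6), and 25 of its 41 tested CpGs gained. Its 3 steps were at 2.42%, 0.858% and 19.1% in 5M-GS and at 65.4%, 43.1% and 62.6% in 60M-GS, with adjusted p from 2.98e-75 to 2.06e-18 (Fisher's exact test). The level in 60M-GS was thus lowest in the middle, and intermediate throughout. The 5′ stretch of Meg3, a few kilobases upstream, was under 2% in both.

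Upstream of Dlk1, centred 16073 bp from its start and outside annotated genes, chr12:109436001-109437500 went from 26.7% of 823 calls to 72.0% of 840 calls over 34 CpGs (difference 45.3 points, 40.9 to 49.4), and 19 of its 33 tested CpGs gained. Inside Rasgrf1, centred 44225 bp from its start, chr9:89953501-89954500 went from 44.9% of 677 calls to 91.3% of 735 calls over 27 CpGs (difference 46.4 points, 42.0 to 50.5), and 16 of its 26 tested CpGs gained. The dense run of 20 CpGs within it (chr9:89953872-89954216) went from 38.7% to 92.0%. This run and the one in Dlk1 were the 2 that gained among 17 dense runs of the 3 intervals, and 0 lost, against 5.13% of runs that gained and 0.120% that lost in the genome (Fisher's exact test on runs, adjusted p = 1.93e-75 at Rasgrf1 and 1.93e-157 at Dlk1). These 4 gained stretches and the loss in Nctc1 described next were the 5 of 22 that also passed with divided calls.

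The largest loss lay inside Nctc1, a noncoding gene on the far side of H19 from its control region. There chr7:142552501-142554000 went from 82.7% of 562 calls in 5M-GS to 42.2% of 465 calls in 60M-GS over 20 CpGs (difference -40.6 points, -45.9 to -35.0), and 7 of its 16 tested CpGs lost methylation. Its 3 steps passed with adjusted p from 1.14e-31 to 4.46e-05 (Fisher's exact test). A step nearer to H19, 6396 bp from its 5′ end (chr7:142571501-142572000), went from 91.5% to 66.2% (adjusted p = 9.64e-13 by Fisher's exact test), and one between them (chr7:142563001-142563500) from 85.2% to 61.8% (adjusted p = 3.04e-06). All 5 called losses of the H19-Igf2 interval thus lay downstream of H19, away from its control region.

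**Figure D5:**
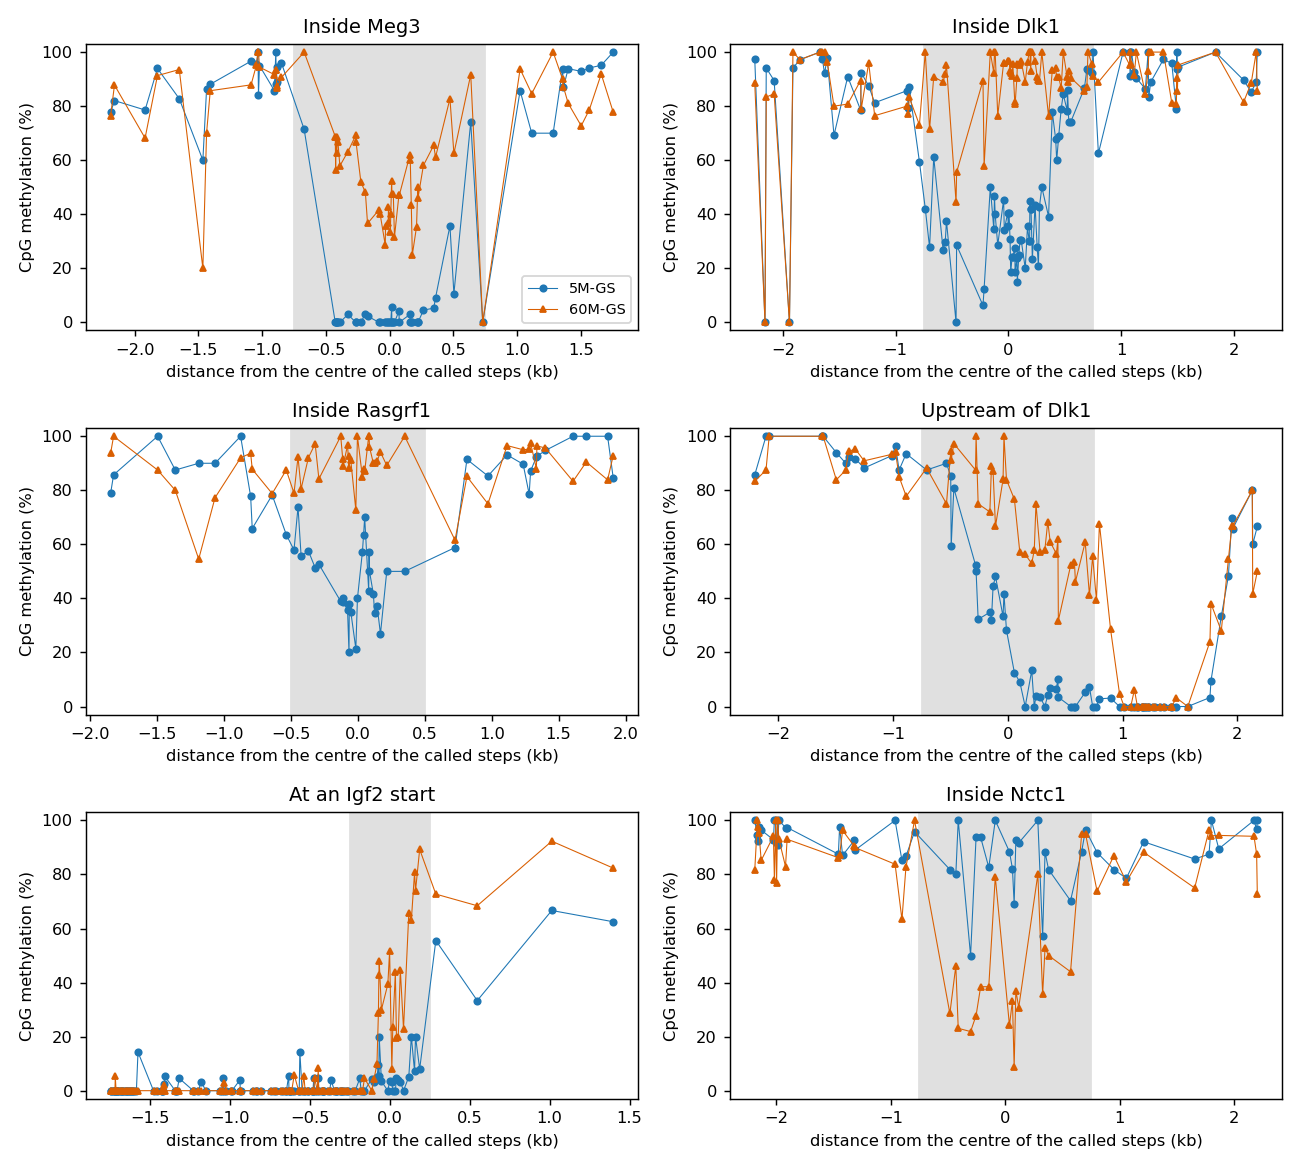
Methylation of single CpGs (percent, vertical axis) by distance from the centre of the called steps (kb) in 6 stretches, inside Meg3, inside Dlk1, inside Rasgrf1, upstream of Dlk1, at an Igf2 start and inside Nctc1, with 5M-GS and 60M-GS as lines and the called steps shaded. In the 5 gained stretches most CpGs in the shade are higher in 60M-GS (44.1% and 91.8% over the Dlk1 stretch), and in Nctc1 most are lower (82.7% and 42.2%).

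The other gains were smaller and none passed with divided calls. In Meg3 the step from 109546001 went from 60.6% to 86.2%, and in Rian the step from 109612501 from 62.2% to 86.3%. Upstream of Rasgrf1, chr9:89900001-89901000 went from 48.3% to 73.7%. In Ctsh the step from 90055501, at the side of the unmethylated stretch named above, went from 21.1% to 42.5%. Mirg had no called step, and its span had the highest level of the 7 genes (92.6% and 91.0%).

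The remaining losses lay at 6 sites upstream of Dlk1 or between Dlk1 and Meg3 and at 2 sites of the Rasgrf1 interval. Upstream of Dlk1, chr12:109445501-109446500 went from 26.2% to 4.53% over 27 CpGs, the step from 109442001 from 71.0% to 49.7%, the step from 109423001 from 38.2% to 7.95% and the step from 109417501 from 54.4% to 32.4%. The 2 sites between Dlk1 and Meg3, both in Gm34081, were the border step of the control region given above and chr12:109518501-109520000, which went from 68.8% to 48.2%. In the Rasgrf1 interval, the step from 89885001 upstream of the gene went from 82.7% to 58.4%, and chr9:90051501-90052500, between Rasgrf1 and Ctsh, from 69.7% to 39.4%. The 4 losses upstream of Dlk1 thus lay on both sides of the gained stretch there.

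Over whole gene spans, 0 of 17 genes of the intervals were called, against 2.67% that gained and 0.0877% that lost in the genome. Dlk1 was at 44.5% of 5625 calls in 5M-GS against 55.1% of 5633 calls in 60M-GS, a difference of 10.6 points (8.73 to 12.4, Fisher's exact test, adjusted p = 6.17e-28), under the limit. Meg3 was at 64.7% and 71.1%, a difference of 6.44 points (5.11 to 7.77, Fisher's exact test, adjusted p = 4.02e-20). Both spans hold the gained stretches described above. The spans of H19 (69.0% and 67.1%), Igf2 (34.9% and 37.1%), Rasgrf1 (81.2% and 81.3%) and Rian (90.2% and 89.7%) differed by under 3 points.

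Other genes of these loci and of imprint upkeep were taken from 2 lists. Of 14 neighbouring or imprinted genes, 0 of 14 spans and 0 of the 12 dense runs within 1 kb of them were called. They included Ins2, the insulin gene next to Igf2 (span 94.3% and 91.3%), and Dio3, the thyroid hormone deiodinase beyond Mirg (1.24% and 2.12%). Another was Rtl1, a retrotransposon-derived gene (90.5% in both). Its annotated span overlaps the end of Meg3 and the start of Rian. Nctc1 and Ctsh were in this list too, and both hold called steps described above. Their whole spans were at 87.9% and 81.8% (Nctc1) and at 72.6% and 73.7% (Ctsh). An uncalled span can thus hold a changed stretch. Of 10 genes for proteins that act on imprints, 0 of 10 spans and 0 of 12 dense runs were called. The span of the insulator protein gene Ctcf was at 60.3% and 60.8%, that of Zfp57 at 53.0% and 55.5%, that of Trim28, the corepressor of ZFP57, at 35.3% and 38.1%, and that of Dppa3, which protects imprints in the early embryo, at 12.8% and 22.8%. These shares lie near or below the backgrounds given above for runs and spans.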

How the data were processed

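DNA methylation was measured in 2 replicates each of 5M-GS and 60M-GS. Per the submitters' processing notes, Bismark 0.10.0 and the build mm10 were used, and the labels' protocols name post-bisulfite adaptor tagging. The deposited tables, 1 per culture age with its replicates pooled, give for each CpG the counts of methylated and unmethylated calls. They also give the percent methylated, which the authors computed from those counts and which differed from them in 0 rows. For filters and deduplication nothing is stated in the labels. On chromosomes 1 to 19 and X, 17634196 CpGs had 5 calls or more in each table.

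A two-sided Fisher's exact test of the counts was run on regions holding 4 or more of these CpGs, with Benjamini-Hochberg adjusted p-values over all steps, runs, gene spans or promoter windows of the genome. Calls needed an adjusted p under 0.05 and a difference of at least 20 points. Single CpGs needed 10 calls. Dense runs had 20 CpGs or more, gaps up to 50 bp and at least 200 bp in all. Intervals are Wilson's, and Newcombe's for differences. Calls on one read are not independent, so the test was repeated with calls divided by the CpGs of a region. Genes came from RefSeq (GRCm38.p6), without exons, and promoter sequences and starts from its promoter table, which matched 6 of the 7 genes. Of 360715 CpGs in those sequences, 353694 (98.1%) were found in the tables at the same positions. A CpG of the reference that the strain lacks would be read as unmethylated, which was not tested.

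The 7 genes, the control regions and the lists were chosen with earlier results of these data known. Genes named were the 7, any gene in the intervals overlapping a called step, a called run or an unmethylated stretch, and the 2 lists. Gm33148 and the single CpGs were named after their values were seen. Promoter windows were added after the tables were seen, once their strands were known. Other settings for coverage, limits, grid, runs and flanks were tried. Tests were tried on simulated data. Scripts used Python 3.11.15, numpy 2.4.6, scipy 1.17.1, pandas 2.3.3, numba 0.67.0 and matplotlib 3.10.9.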

Additional observations from a re-analysis of the deposited data

How the results depend on the processing

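No paired analysis was possible because both replicates of an age are pooled in 1 table, and for the same reason no replicate could be left out. The differences of the 3 control regions moved by less than their intervals in every alternative run. All 22 called stretches passed again with at least 10 calls, at least 1 call, at least 2 CpGs, or without CpGs over 100 calls, 18 passed with the grid shifted by 250 bp, 11 with steps of 1000 bp and 5 with divided calls. Depth limits single CpGs, which may rest on 5 calls in a table.

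Counts moved as follows. With a minimum difference of 10 points, steps that lost numbered 27 in the 3 intervals and 36034 in the genome, runs that lost 71 in the genome, gene spans that gained 1 in the intervals (Dlk1) and 2205 in the genome, spans that lost 210, promoter windows that gained 1 in the intervals (Igf2) and 2168 in the genome, and windows that lost 682. With divided calls, steps in the genome numbered 18693 gained and 970 lost and steps in the intervals 6 and 1, runs in the genome 702 and 3, spans 82 and 0, and windows 353 and 9. Steps of 1000 bp gave 11 gained and 5 lost in the intervals and 8026 lost in the genome. Flanks of 20 kb left 8 lost steps in the intervals. Runs of 10 CpGs with gaps up to 100 bp gave 8 gained and 4 lost in the intervals and 21719 and 2527 in the genome.

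Stretch lengths moved most, since single steps near the limit end a stretch. At H19 in 5M-GS the length was 31.5 kb at a limit of 50% (an alternative chosen after seeing the data, as were the promoter windows), 3 kb at 90%, 4 kb with steps of at least 1 CpG and 14 kb with the shifted grid. At H19 in 60M-GS it was 32 kb at 50%, 31 kb at 70%, 2 kb at 90%, 6 kb with at least 1 CpG and 14 kb with the shifted grid. At Meg3 in 5M-GS it was 17 kb at 50%, 11 kb at 70%, 1.5 kb at 90% and 9.5 kb with at least 1 CpG. At Meg3 in 60M-GS it was 12.5 kb at 50%, 9 kb at 70%, 2.5 kb at 90%, 3.5 kb with at least 1 call and 3.5 kb with the shifted grid. At Rasgrf1 in 5M-GS it was 7.5 kb at 50%, 4.5 kb at 70%, 4.5 kb with at least 10 calls and 4.5 kb with the shifted grid. At Rasgrf1 in 60M-GS it was 3 kb at 90%, 4 kb with at least 1 call and 4 kb with at least 1 CpG.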
